A study of Homo sapiens with 8 samples.

Results

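The genes described here encode the proteins of the mitochondrial ribosome, and were taken as every row of the deposited gene table whose symbol is MRPL or MRPS followed by a number and at most 1 letter, leaving out rows described as pseudogenes. The rule found 78 of the 15811 genes in the table, all 78 annotated as protein-coding, and no matching row was a pseudogene. RNA-seq of total RNA was done on H9, a widely used line of human embryonic stem cells, with 4 libraries for each of 2 genotypes. The EXT1-/- group is an H9 line whose EXT1 gene was targeted with CRISPR/Cas9, and the WT group is unedited H9. Both groups had spent 28 h in RPMI-1640 with 6 µM CHIR-99021, a GSK3 inhibitor that activates β-catenin signalling and starts mesendoderm formation. EXT1 encodes a glycosyltransferase that builds heparan sulfate chains, and the comparison addresses the effect of losing heparan sulfate on induced cells. The genotype is represented by 1 EXT1-/- line, no uninduced library was analysed here, and the labels leave unsaid whether each library is a separate culture; p-values therefore reflect the variation among these libraries only, which could be technical.

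The mitochondrial ribosome translates the 13 proteins encoded by mitochondrial DNA (mtDNA), all of them subunits of the respiratory chain or the ATP synthase. Its ribosomal RNAs come from mtDNA, whereas its proteins are encoded in the nucleus, made in the cytosol and imported. The small subunit holds the mRNA and decodes it, and the large subunit forms the peptide bonds and passes the new chain towards the inner membrane. Some of the proteins descend from bacterial ribosomal proteins, and others were added in mitochondria. The classes here follow the standard names of the proteins, which count MRPS18A and MRPS18B as specific to mitochondria although their sequences are related to a bacterial protein. Of the 78 genes, 51 encode large subunit proteins (30 with a bacterial homologue, 21 specific to mitochondria) and 26 encode small subunit proteins (16 with a bacterial homologue, 10 specific to mitochondria). MRPS30 and MRPS18A are counted with the large subunit, where their proteins sit despite their names. MRPS36 fits the rule by its symbol only, since its protein is known as a subunit of the 2-oxoglutarate dehydrogenase complex and is counted outside the ribosome.

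Library totals were 37737058 to 40017763 normalised read counts, of which 38.9 make 1 CPM (count per 1e6 counts). The libraries formed 2 sets with no counterpart in the labels: mtDNA-encoded transcripts took 9.18% and 9.38% of the counts in EXT1-/- replicates 1 and 4 and 10.67% in WT replicate 1, against 5.30 to 5.43% in the remaining 5. The first 3 libraries are the high set below and the other 5 the low set. Libraries of 1 genotype differed far more between the sets (chi-square per degree of freedom 72.35 to 119.45) than within them (4.42 to 10.75). This measure includes the mtDNA-encoded genes by which the sets were chosen, so part of the gap follows from that choice. EXT1 had 890, 894, 915 and 980 normalised counts in the EXT1-/- libraries, against 1776, 1499, 1464 and 1508 in the WT libraries, a log2 fold change of -0.76 ± 0.07 (SE; limma adjusted p = 9.2e-05). The transcript was lower in every EXT1-/- library but not absent. Marker sums in the EXT1-/- and WT libraries were 113367 to 121831 against 169218 to 172521 for pluripotent genes (6 of 6 measured, 5 lower), 8784 to 13574 against 25265 to 29322 for mesendoderm genes (5 of 6 measured, 3 lower), 2816 to 5000 against 142 to 184 for neuroectoderm genes (3 of 6 measured, 3 higher), 3575 to 6254 against 3272 to 3609 for amnion or trophectoderm genes (4 of 6 measured, 2 higher and 1 lower) and 4819 to 5430 against 8039 to 8838 for fibroblast genes (3 of 6 measured, 3 lower). The sums lay apart between the genotypes for all of these lists except the amnion or trophectoderm genes, whose sums overlapped, and their part in the results below was not tested; in bulk RNA, fewer cells of a type and less RNA per cell cannot be told apart.

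All mitochondrial ribosomal protein genes were well measured, with library values of 390 to 7552 normalised counts and gene means of 13.47 to 185.07 CPM. Per kilobase of transcript, their levels ran from 452 normalised counts for MRPL57 to 8750 for MRPL51, with a median of 1680, against a median of 290.0 over all genes. By class, the median level per kilobase was 1810 for large subunit proteins with a bacterial homologue, 1250 for those specific to mitochondria, 1860 for small subunit proteins with a bacterial homologue and 1580 for those specific to mitochondria. MRPL3, a large subunit protein with a bacterial homologue, had the highest mean, with 7280, 6908, 7252 and 7552 normalised counts in EXT1-/- libraries, against 7194, 7078, 7119 and 7211 in WT libraries. Its groups overlapped, and the log2 fold change of 0.02 had a 95% confidence interval of -0.09 to 0.12. MRPL53, a large subunit protein specific to mitochondria, had the lowest mean, with 565, 560, 499 and 571 normalised counts in EXT1-/- libraries, against 390, 532, 564 and 508 in WT libraries. These groups overlapped too (log2 fold change 0.15, 95% confidence interval -0.11 to 0.41). The median coefficient of variation between libraries of a group was 10.1% in EXT1-/- cells and 8.72% in WT cells.

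The total output of the 78 genes hardly differed between the genotypes. Their normalised counts summed to 169409, 159881, 164412 and 171410 in EXT1-/- libraries, against 162932, 167867, 175112 and 175427 in WT libraries. The groups overlapped, with means of 166300 ± 5180 in EXT1-/- cells and 170300 ± 6050 in WT cells (SD, n = 4 each) and a ratio of 0.976. As a share of the library the sums were 0.4277% ± 0.00386 in EXT1-/- cells and 0.4377% ± 0.0212 in WT cells (SD, n = 4 each). The ratio of the sums was 0.938 among low-set libraries and 1.046 in the high set, which holds 1 WT library, so its direction turned with the set.

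**Figure D1:**
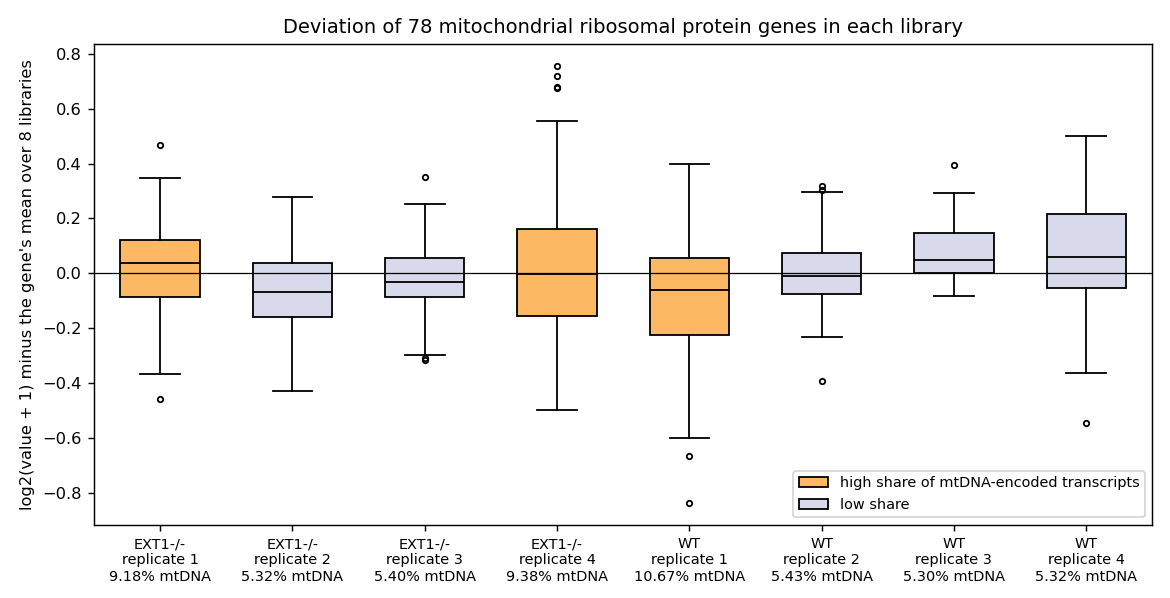
Each box shows how far the 78 mitochondrial ribosomal protein genes lay from their own mean over 8 libraries, as log2(value + 1), in 1 library, with the share of mtDNA-encoded transcripts under each name; boxes span the quartiles, whiskers reach the farthest gene within 1.5 box lengths and points lie beyond. Medians lay between -0.07 (EXT1-/- replicate 2) and 0.06 (WT replicate 4), and the boxes of all 8 libraries overlap.

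Gene by gene, 14 of the 78 passed the test between the genotypes: 4 rose and 10 fell in EXT1-/- cells. This is 17.9% of the genes, beside 32.0% of all 15811 genes tested (limma, Benjamini-Hochberg adjusted p below 0.05). The 4 that rose are 5.13%, beside 15.2% of all genes, and the 10 that fell are 12.8%, beside 16.8%. Differences were small: 69 of the 78 changed by less than 1.25-fold, as did 63.8% of all genes, and 1, MRPL34, by at least 1.5-fold, beside 18.0% of all genes. The median log2 fold change was -0.032, against 0.012 over all genes, and the median of its size was 0.14, against 0.216. In 16 of the 78 (20.5%) the EXT1-/- values all lay on 1 side of the WT values, beside 33.5% of all genes. The count depended on single libraries: it was 7 without EXT1-/- replicate 2, 9 without EXT1-/- replicate 4, 8 without WT replicate 2, 9 without WT replicate 3 and 6 without WT replicate 4. With a model term for the library set (the set term), 30 passed (9 higher and 21 lower, 38.5%), beside 51.8% of all genes (26.2% higher and 25.6% lower), and all 14 first calls were among them.

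**Figure D2:**
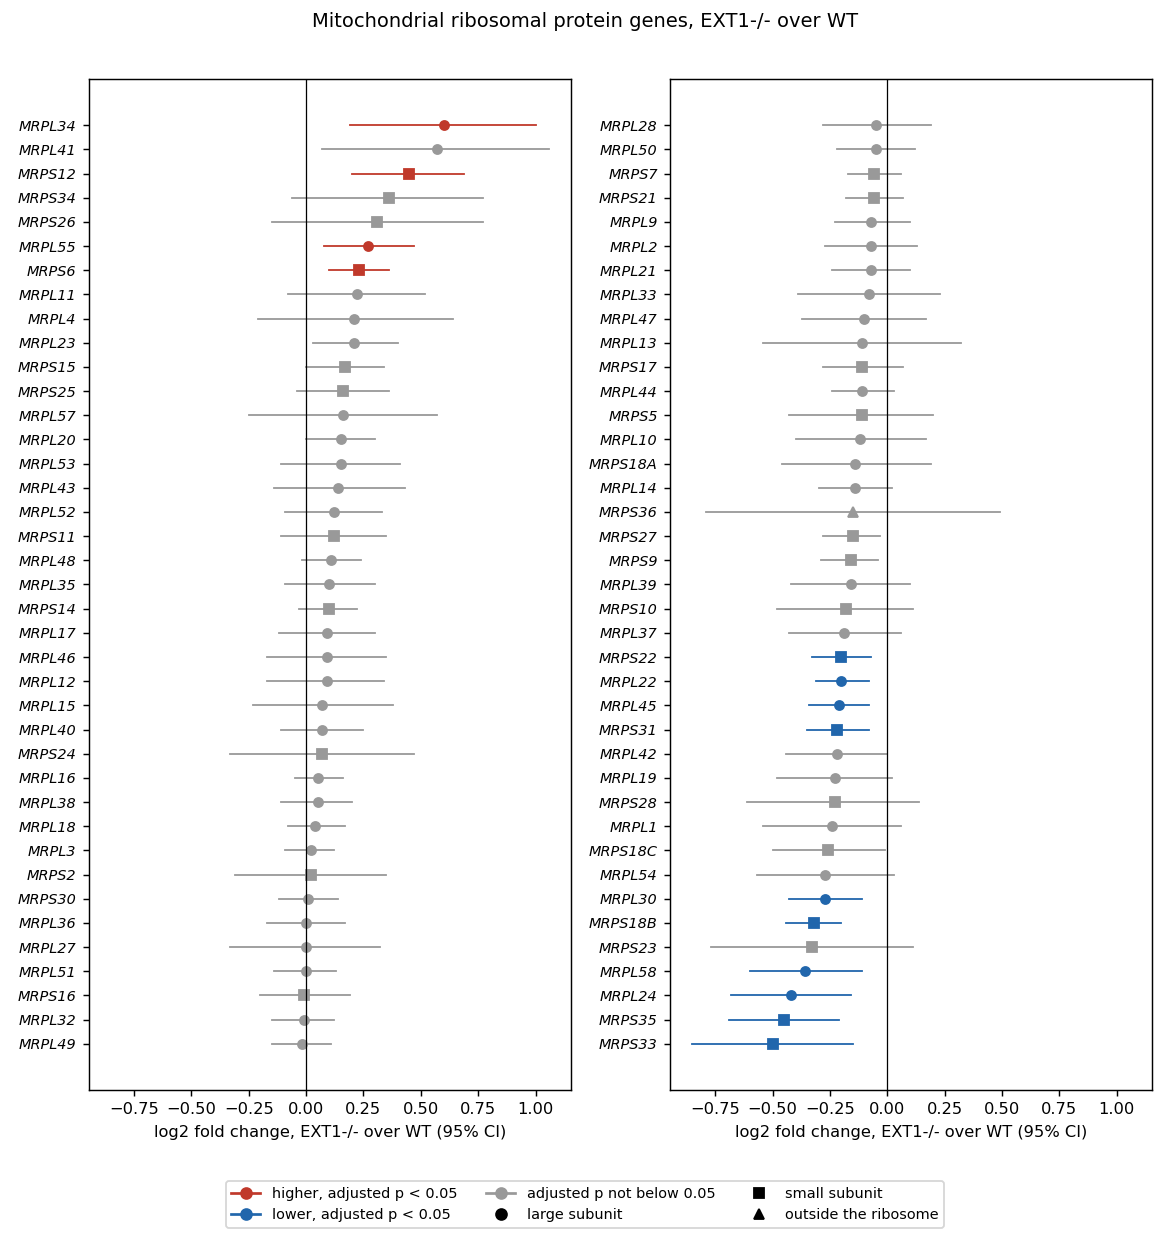
Log2 fold change, EXT1-/- over WT, of each of the 78 genes (points) with its 95% confidence interval (lines), in order of the fold change; colour gives the call and shape the subunit. The 4 genes that rose reach 0.60 (MRPL34) and the 10 that fell reach -0.50 (MRPS33), while most intervals cross 0.

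Of the small subunit proteins specific to mitochondria, 5 of 10 fell and 0 rose (16.8% of all genes fell and 15.2% rose), with a median log2 fold change of -0.206. This median stayed between -0.224 and -0.193 under 3 other scalings of the libraries and was -0.12 after trends of the values on transcript length and GC content were removed, an alternative chosen after seeing the data. With the set term 7 fell and 1 rose, where 25.6% of all genes fell and 26.2% rose, and in the low set alone the counts were also 7 and 1, where 24.3% of all genes fell and 21.1% rose. The count of 5 was 3 without EXT1-/- replicate 1 and without EXT1-/- replicate 2, and 2 without EXT1-/- replicate 4 and without WT replicates 2, 3 or 4 in turn; it was also 3 after length and GC trends were removed, where 19.6% of all genes fell. Of the small subunit proteins with a bacterial homologue, 2 of 16 rose and 0 fell, and the median was -0.033. Among large subunit proteins, 2 of 30 with a bacterial homologue rose and 3 fell (median -0.008), and 0 of 21 specific to mitochondria rose and 2 fell (median -0.004). Whether the classes differ was not tested, and their medians are descriptions.

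MRPS18B, MRPS35 and MRPS33, small subunit proteins specific to mitochondria, fell. MRPS18B is 1 of 3 human paralogs related to a single bacterial protein, of which only MRPS18C is counted here as its homologue; without MRPS18B, 4 of 9 in the class fell, with a median log2 fold change of -0.196. Its gene lies on chromosome 6 at 30617709 to 30626395 (plus strand, GRCh38, GENCODE 29). It had 2203, 2255, 2374 and 2206 normalised counts in EXT1-/- libraries, against 2755, 2741, 2807 and 2987 in WT libraries. Every EXT1-/- library lay below every WT library, and the log2 fold change was -0.32 ± 0.05 (SE; limma adjusted p = 0.00177), with -0.30 in the low set and -0.32 in the high set. PPP1R10, on the opposite strand, overlaps the 5′ end of MRPS18B, so reads from the shared stretch could have been counted for either gene unless counting used strand, which is not stated; PPP1R10 had a log2 fold change of -0.34 ± 0.14 (SE; limma adjusted p = 0.0837). With the set term PPP1R10 was called lower at -0.44 (limma adjusted p = 5.5e-05), beside -0.31 for MRPS18B. MRPS35 (chromosome 12, 27710773 to 27756295) had 2079, 2425, 2565 and 2003 normalised counts in EXT1-/- libraries, against 2621, 3257, 3234 and 3304 in WT libraries. The groups did not overlap, although WT replicate 1 lay far below the other WT libraries (log2 fold change -0.45 ± 0.11, SE; limma adjusted p = 0.0108). MRPS33 (chromosome 7, 141002610 to 141015228) had 833, 951, 1073 and 761 normalised counts in EXT1-/- libraries, against 962, 1268, 1400 and 1508 in WT libraries. Here the groups overlapped, since EXT1-/- replicate 3 was above WT replicate 1 (log2 fold change -0.50 ± 0.15, SE; limma adjusted p = 0.037). Leaving out any 1 of EXT1-/- replicates 1, 2 and 4 or WT replicates 2, 3 and 4 ended the call of MRPS33, with adjusted p of 0.0578 to 0.0987, as did limma without the trend (adjusted p = 0.0502), and no single library ended those of MRPS18B or MRPS35.

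MRPS31 and MRPS22, also specific to mitochondria and in the small subunit, fell by less. MRPS31 (chromosome 13, 40729135 to 40771173) had 1216, 1188, 1260 and 1119 normalised counts in EXT1-/- libraries, against 1311, 1408, 1407 and 1425 in WT libraries. The groups did not overlap (log2 fold change -0.22 ± 0.06, SE; limma adjusted p = 0.0212). Its transcribed pseudogene copies MRPS31P4 and MRPS31P5, which may share reads with it, had 156.2 ± 28.4 and 377.5 ± 9.29 normalised counts in EXT1-/- cells, against 122.2 ± 5.85 and 365.0 ± 7.96 in WT cells (SD, n = 4 each), and neither passed the test. MRPS22 (chromosome 3, 139005806 to 139357223) had 1834, 1775, 1868 and 1794 normalised counts in EXT1-/- libraries, against 1956, 2006, 2231 and 2147 in WT libraries. Again every EXT1-/- library was below every WT library (log2 fold change -0.20 ± 0.06, SE; limma adjusted p = 0.0299). The call of MRPS31 was lost without EXT1-/- replicate 4, WT replicate 2, WT replicate 3 or WT replicate 4 (adjusted p up to 0.0665), and that of MRPS22 without any 1 library except EXT1-/- replicate 3 and WT replicate 1 (adjusted p 0.0537 to 0.0879). Both calls also ended with length and GC trends removed, at -0.12 for MRPS31 (adjusted p = 0.111) and -0.12 for MRPS22 (adjusted p = 0.0618). The other members of this class were not called: MRPS23 (-0.33 ± 0.19), MRPS27 (-0.15 ± 0.06), MRPS25 (0.16 ± 0.09), MRPS26 (0.31 ± 0.20) and MRPS34 (0.36 ± 0.18; log2 fold change ± SE). In the low set alone MRPS23 and MRPS27 were called lower, at -0.22 and -0.14, and MRPS25 was called higher, at 0.23.

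DAP3, whose product is another mitochondria-specific protein of the small subunit but whose symbol is outside the rule, was lower as well. It had 2697, 2880, 2911 and 2680 normalised counts in EXT1-/- libraries, against 3600, 3755, 3881 and 3723 in WT libraries. The groups lay well apart (log2 fold change -0.42 ± 0.05, SE; limma adjusted p = 0.000363). Of the 5 mitochondrial ribosomal proteins with other symbols, DAP3 was the only one called, where 32.0% of all genes were called. AURKAIP1, CHCHD1 and PTCD3, which are also small subunit proteins specific to mitochondria, did not pass, nor did GADD45GIP1 of the large subunit. Their log2 fold changes were 0.26 for AURKAIP1, -0.18 for CHCHD1, -0.05 for PTCD3 and 0.2 for GADD45GIP1. AURKAIP1, with the next smallest adjusted p, had 2577, 2194, 2146 and 3201 in EXT1-/- libraries, against 1881, 1990, 2434 and 2081 in WT libraries, and its groups overlapped (0.26, adjusted p = 0.18).

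MRPL24, MRPL30, MRPL22, MRPL45 and MRPL58 were the large subunit genes that fell. MRPL24 (chromosome 1, 156737303 to 156741590), with a bacterial homologue, had 725, 539, 583 and 666 normalised counts in EXT1-/- libraries, against 953, 742, 793 and 867 in WT libraries. The groups just missed each other (log2 fold change -0.42 ± 0.11, SE; limma adjusted p = 0.021), and the call ended without EXT1-/- replicate 2, EXT1-/- replicate 3 or WT replicate 4 (adjusted p 0.0502 to 0.0573). MRPL30 (chromosome 2, 99181079 to 99197626), also with a bacterial homologue, had 3999, 3937, 4325 and 3828 normalised counts in EXT1-/- libraries, against 4382, 4761, 5012 and 5308 in WT libraries. The groups did not overlap (log2 fold change -0.27 ± 0.07, SE; limma adjusted p = 0.0177), and the call ended without WT replicate 3 (adjusted p 0.0538); with length and GC trends removed it held at -0.18. MRPL22 (chromosome 5, 154941070 to 154969411), whose bacterial homologue lines the exit tunnel, had 1479, 1394, 1465 and 1464 normalised counts in EXT1-/- libraries, against 1624, 1636, 1635 and 1760 in WT libraries. All EXT1-/- values were lower (log2 fold change -0.20 ± 0.05, SE; limma adjusted p = 0.0186), with the call lost without EXT1-/- replicate 2 or WT replicate 4 (adjusted p 0.0508 and 0.055), and with length and GC trends removed (-0.14, adjusted p = 0.152).

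MRPL45 (chromosome 17, 38297023 to 38323218), specific to mitochondria, sits at the exit of the tunnel and tethers the ribosome to the inner membrane. It had 3290, 2973, 3034 and 3191 normalised counts in EXT1-/- libraries, against 3850, 3547, 3528 and 3496 in WT libraries. No values overlapped (log2 fold change -0.21 ± 0.06, SE; limma adjusted p = 0.0215), and the call ended without EXT1-/- replicate 2, EXT1-/- replicate 3 or WT replicate 2 (adjusted p 0.0533 to 0.0566), and with length and GC trends removed (-0.17, adjusted p = 0.0541). Its pseudogene copy MRPL45P2 was low, at 69.75 ± 9.74 normalised counts in EXT1-/- cells and 68.75 ± 12.4 in WT cells (SD, n = 4 each). MRPL58 (chromosome 17, 75012670 to 75021261), a peptidyl-tRNA hydrolase that frees chains from stalled ribosomes and is built into the large subunit, had 958, 718, 815 and 948 normalised counts in EXT1-/- libraries, against 1156, 962, 1107 and 1160 in WT libraries. The highest EXT1-/- library was just under the lowest WT library (log2 fold change -0.36 ± 0.11, SE; limma adjusted p = 0.0331). Leaving out EXT1-/- replicate 2 or 3, or WT replicate 1, 3 or 4, ended the call of MRPL58 (adjusted p 0.0579 to 0.0879).

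The 4 genes that rose encode proteins with a bacterial homologue, as do 30 large and 16 small subunit genes of the 78. They are MRPS12 and MRPS6 in the small subunit, and MRPL34 and MRPL55 in the large. With the set term MRPL41 and MRPS25, specific to mitochondria, were called higher too (0.60 and 0.21, limma adjusted p = 0.0392 and 0.00127). MRPS12 (chromosome 19, 38930548 to 38933162), whose bacterial homologue takes part in decoding, had 1418, 1413, 1297 and 1558 normalised counts in EXT1-/- libraries, against 896, 1101, 1243 and 954 in WT libraries. The lowest EXT1-/- library was above the highest WT library (log2 fold change 0.45 ± 0.11, SE; limma adjusted p = 0.0129). Its 5′ end overlaps that of SARS2 on the opposite strand, which was not called (0.11 ± 0.10, SE). MRPS6 (chromosome 21, 34073224 to 34143034) had 3210, 3321, 3280 and 3230 normalised counts in EXT1-/- libraries, against 2511, 2893, 2899 and 2827 in WT libraries. The EXT1-/- libraries were tightly grouped above all WT libraries (log2 fold change 0.23 ± 0.06, SE; limma adjusted p = 0.0164). Both calls held with each library left out.

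MRPL34 (chromosome 19, 17292609 to 17306843) showed the largest difference of the 78 genes, and also a large one between the library sets. It had 1688, 1262, 1192 and 2011 normalised counts in EXT1-/- libraries, against 1055, 929, 1184 and 836 in WT libraries. The groups did not overlap, but EXT1-/- replicates 1 and 4, of the high set, were far above the other EXT1-/- libraries (log2 fold change 0.60 ± 0.18, SE; limma adjusted p = 0.0316). In the low set the log2 fold change was 0.33 (adjusted p = 0.069), and the call was lost without EXT1-/- replicate 1, EXT1-/- replicate 4, WT replicate 2 or WT replicate 4 (adjusted p 0.0624 to 0.0867). MRPL55 (chromosome 1, 228106679 to 228109312) had 824, 827, 855 and 954 normalised counts in EXT1-/- libraries, against 671, 728, 811 and 654 in WT libraries. The groups did not overlap (log2 fold change 0.27 ± 0.09, SE; limma adjusted p = 0.0367), yet leaving out any library other than WT replicate 3 ended the call (adjusted p 0.0536 to 0.0992), and it also ended in the low set (0.21, adjusted p = 0.0939) and with length and GC trends removed (0.10, adjusted p = 0.355).

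**Figure D3:**
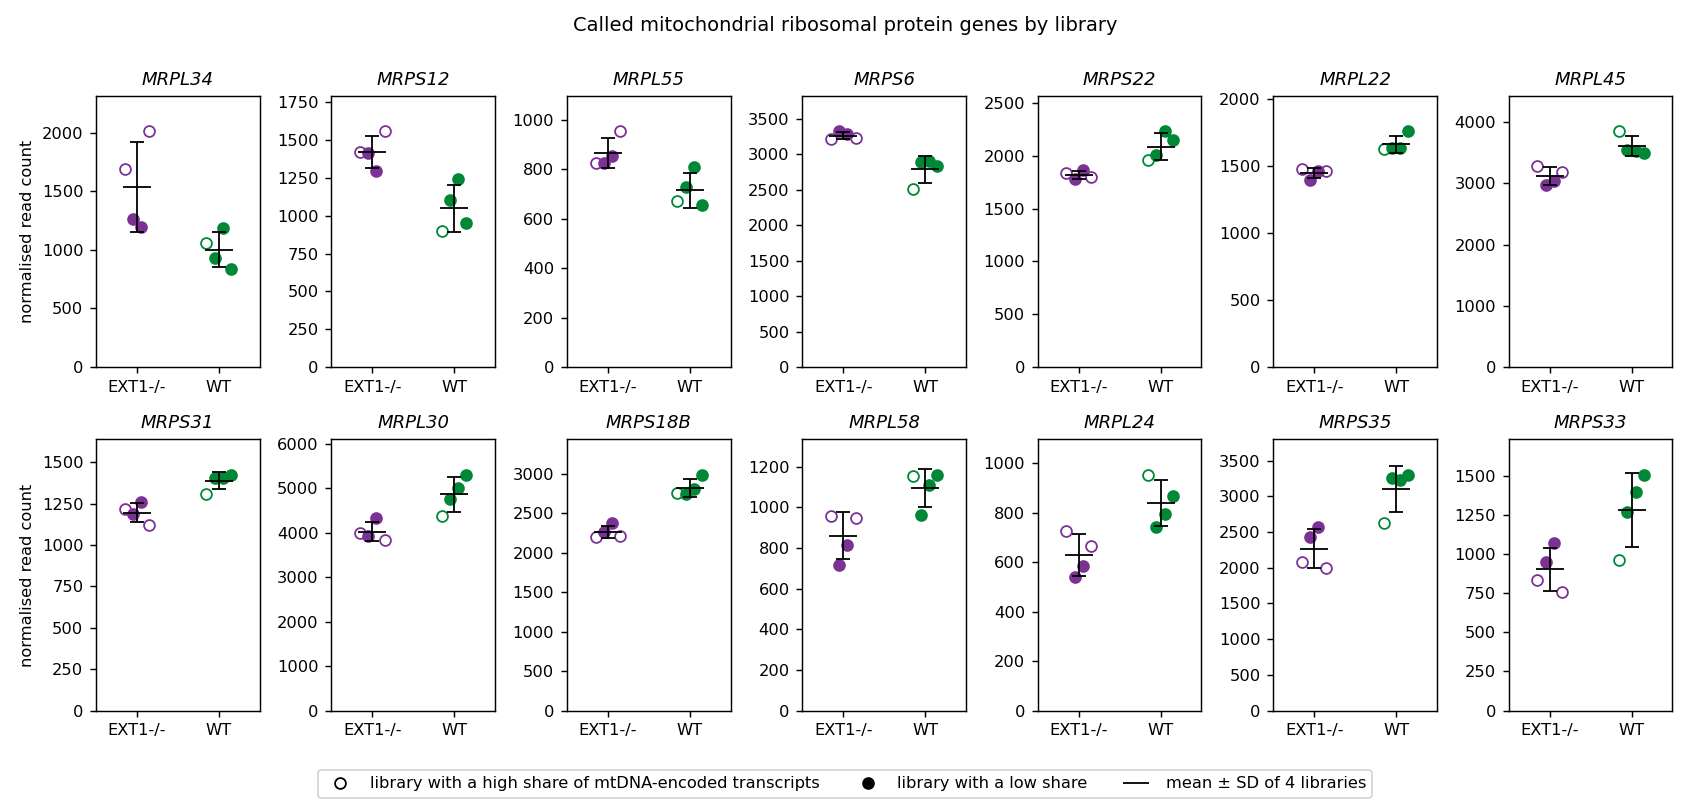
Normalised read counts of the 14 called genes in each library, with EXT1-/- left of WT, bars for mean ± SD of 4 libraries, and open points for the high set. In 13 panels the groups do not overlap; in MRPS33 an EXT1-/- library at 1073 lies above WT replicate 1 at 962.

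Several genes of known interest did not pass. MRPL12, a large subunit protein reported to bind the mitochondrial RNA polymerase, had 2724, 2486, 2387 and 3277 normalised counts in EXT1-/- libraries, against 2292, 2425, 2895 and 2593 in WT libraries. The groups overlapped (log2 fold change 0.09, 95% confidence interval -0.17 to 0.34), and the sign turned in the low set (-0.11). MRPS16, which is mutated in some inherited respiratory chain disease, had 5310, 5771, 6019 and 5241 in EXT1-/- libraries, against 4772, 5892, 5980 and 5885 in WT libraries. The high set was the lower one in both genotypes (95% confidence interval -0.20 to 0.19). MRPL44, also mutated in such disease, had 1876, 1866, 1846 and 1752 in EXT1-/- libraries, against 1821, 1978, 2104 and 2020 in WT libraries. WT replicate 1 lay among the EXT1-/- libraries, and the interval was -0.24 to 0.03. MRPL41, specific to mitochondria, had 859, 910, 817 and 1333 normalised counts in EXT1-/- libraries, against 441, 703, 854 and 664 in WT libraries. WT replicate 3 lay above EXT1-/- replicate 3, and the log2 fold change of 0.57 ± 0.22 missed the threshold (SE; limma adjusted p = 0.0768) although it was the second largest; with the set term it was called (0.60, adjusted p = 0.0392). The other paralogs of MRPS18B were not called in all 8 libraries. MRPS18C, in the small subunit, had 1852, 1963, 2040 and 1861 normalised counts in EXT1-/- libraries, against 1843, 2456, 2335 and 2658 in WT libraries. MRPS18A, in the large subunit, had 1940, 1298, 1385 and 1858 in EXT1-/- libraries, against 2049, 1598, 1743 and 1658 in WT libraries. Both overlapped through the high set, and both were lower with the set term (MRPS18C -0.19, adjusted p = 0.036; MRPS18A -0.24, adjusted p = 0.00449).

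MRPS30 had 2514, 2304, 2359 and 2531 normalised counts in EXT1-/- libraries, against 2466, 2312, 2311 and 2546 in WT libraries, values that nearly coincide (log2 fold change 0.01, 95% confidence interval -0.12 to 0.14). MRPL36, with a bacterial homologue, had 956, 773, 875 and 923 in EXT1-/- libraries, against 887, 839, 891 and 901 in WT libraries. Its interval was -0.17 to 0.17. MRPL13, with a bacterial homologue, had 1698, 2195, 2311 and 1514 in EXT1-/- libraries, against 1452, 2147, 2343 and 2399 in WT libraries. The low values are the 3 libraries of the high set, in either genotype. The same held for MRPS36, which had 594, 992, 1042 and 590 in EXT1-/- libraries, against 515, 1020, 981 and 1064 in WT libraries. Between the high and the low set MRPS36 differed by -0.87 and MRPL13 by -0.56 on the log2 scale (limma adjusted p = 9.37e-06 and 8.91e-05, with genotype as a term).

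Differences between the library sets were about as frequent as among all genes. Between the sets, 41 of the 78 genes differed, 20 higher and 21 lower in the high set (52.6%, beside 48.5% of all genes, 24.1% higher and 24.4% lower; limma with genotype as a term). In the low set alone (2 EXT1-/- and 3 WT libraries) 31 genes were called between the genotypes, 5 higher and 26 lower (39.7%, beside 45.4% of all genes, 21.1% higher and 24.3% lower). In the high set, which shares no library with the low one but holds 1 WT library, all 5 of the higher and 24 of the 26 lower genes had the same sign. The medians of the 78 genes nevertheless had opposite signs, -0.075 in the low and 0.07 in the high set, against 0.0 and 0.03 over all genes. Of the 78, 29 had no shared sign. Neither count of signs is given here for all genes, so both are descriptions of these genes only.

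Across the 78 genes, the difference between the sets went with GC content (Pearson r = 0.53, Spearman rho = 0.55), and so did the log2 fold change between the genotypes (r = 0.57, rho = 0.51; 0.42 and 0.33 with the set term). These are descriptions over genes measured in the same 8 libraries. Over the 15768 genes with a length, r and rho were 0.31 and 0.51 for the difference between the sets. For the genotypes they were 0.16 and 0.23 over those genes. Among the 26 genes with the lowest GC content (35.0 to 46.5%) 0 rose and 7 fell, among the middle 26 1 rose and 2 fell, and among the 26 with the highest (54.0 to 72.0%) 3 rose and 1 fell. Of all genes in the same bands of GC content, 10.6% rose and 18.1% fell in the lowest, 15.4% rose and 19.2% fell in the middle and 20.4% rose and 13.5% fell in the highest. The genes that rose included MRPL34 at 63.15%, MRPL55 at 62.85% and MRPS12 at 61.57% GC, against 48.89% for MRPS6. After removal of length and GC trends 15 genes passed, 7 higher and 8 lower (19.2%, beside 37.9% of all genes, 18.2% higher and 19.6% lower). Of the 14 first calls 9 were kept and MRPL55, MRPS31, MRPS22, MRPL22 and MRPL45 were lost, and MRPL41, at 71.95% GC, stood at -0.07. The part of GC content in the fold changes was not otherwise tested.

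**Figure D4:**
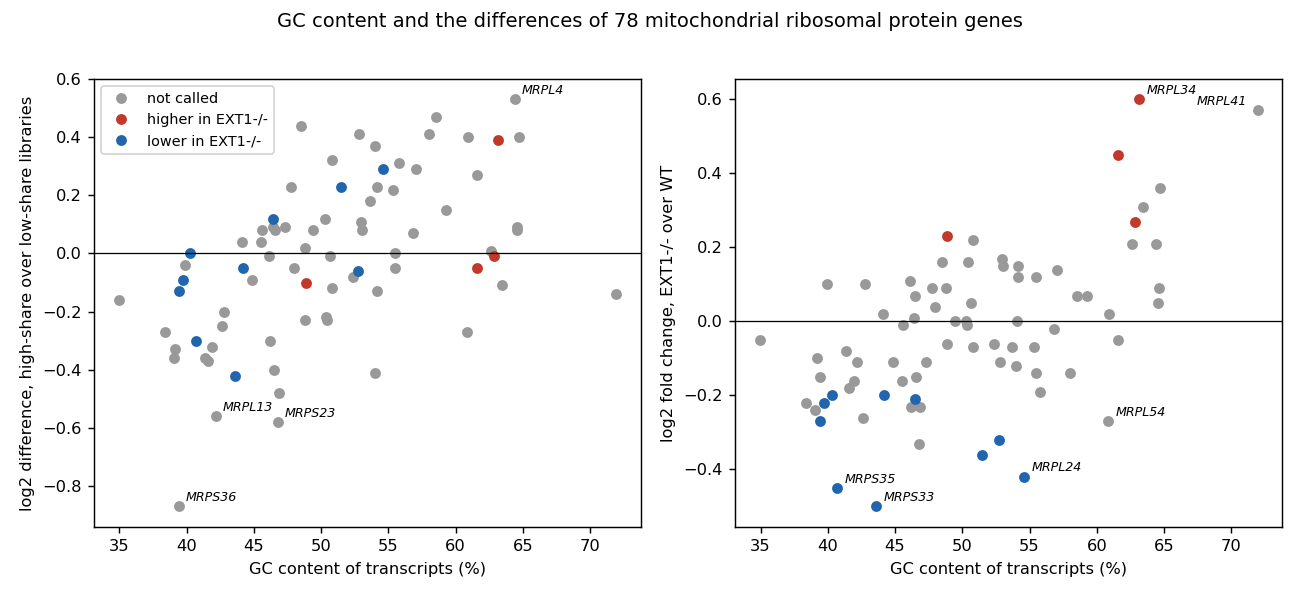
GC content of each gene's transcripts (horizontal axis, percent) against the log2 difference of the high over the low library set with genotype as a term (left) and against the log2 fold change of EXT1-/- over WT (right); each point is 1 of the 78 genes, coloured by its call. Genes rise with GC content in both panels (r = 0.53 and 0.57), MRPL41 being the point farthest right.

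Promoters of nuclear genes for mitochondrial proteins are known for binding sites of NRF1, of ETS family factors such as GABPA, and of YY1. RefSeq promoters (GRCh38.p14, 250 bases before to 50 after the start) were matched for 70 of the 78 genes and searched on both strands. The NRF1 letters, GCGC and TGCGC with any 1 base between them, were in 8 (11.4%), beside 6.28% of all 27305 promoters, the ETS letters CCGGAAGT in 11 (15.7%), beside 4.44%, and the YY1 letters AAGATGGCG in 13 (18.6%), beside 1.85%. At least 1 of the 3 was in 29 (41.4%), beside 11.5%. The 27305 promoters include those of genes outside the 15811 tested, so these shares are not set against measured genes alone. MRPL36 held the NRF1 and YY1 letters, and MRPL38 and MRPL52 the ETS and YY1 letters, with no overlap between the matches. A match is a description, not a bound site. Of the 10 genes that fell, 3 held the NRF1, 1 the ETS and 2 the YY1 letters, and of the 4 that rose 0 held any, in windows of this size. Of the 56 matched genes that were not called, 5 held the NRF1, 10 the ETS and 11 the YY1 letters. The matches in the genes that fell, and those of MRPS18A and MRPS30 for comparison with MRPS18B, are printed 5′ to 3′ on the strand that reads the letters, with the motif in capitals and its place in the genome:
MRPS18B, YY1, chr6:30617854-30617880 (plus): gcgtacgtcAAGATGGCGgcgtctgta
MRPL22, YY1, chr5:154941099-154941122 (plus): ggagggcgaAAGATGGCGgcggca
MRPS18A, YY1, chr6:43687765-43687791 (minus): aggtttttgAAGATGGCGgccctcaag
MRPS30, YY1, chr5:44808951-44808977 (plus): tcgcgggcaAAGATGGCGgcggccagg
MRPL30, NRF1, chr2:99181059-99181086 (plus): gatacccagGCGCCTGCGCtctctttct
MRPL45, NRF1, chr17:38296970-38296997 (minus): agtacggccGCGCGTGCGCagggagaca
MRPS33, NRF1, chr7:141015089-141015116 (plus): gtgtacctgGCGCCTGCGCagtaaggct
MRPS22, ETS, chr3:139343905-139343930 (minus): cggaaagggCCGGAAGTcttccgggc
MRPS22, ETS, chr3:139343989-139344014 (minus): ccacttgcgCCGGAAGTggttgggag
The YY1 letters were often just inside the gene: 10 of the 14 matches, in 10 genes, began at positions 7 to 36, the start being position 1. The NRF1 letters began between -189 and -40. MRPS18B and MRPS18A thus share the YY1 letters, and their log2 fold changes were -0.32 and -0.14, while MRPS30, with the same letters, stood at 0.01.

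Some of these gene records begin next to another protein-coding gene on the opposite strand. In GENCODE 29, 29 of the 78 had such a neighbour with a start within 1000 bases, and 15 within 100. Of the 29, 17 had a neighbour that runs away from them, and the others overlapped theirs at the starts. The share among all genes is not given here. Starts and distances are those of the outermost ends of the gene records. Among the 29, the RefSeq promoters searched above lie more than 1000 bases from that end for MRPS22, MRPL11 and MRPL36. MRPS11 and MRPL46 are 34 bases apart and belong to different subunits; they had log2 fold changes of 0.12 ± 0.10 and 0.09 ± 0.11 (SE), and neither passed. MRPL36 lies 34 bases from NDUFS6, an assembly and accessory subunit of complex I, which rose (0.49 ± 0.10, SE; limma adjusted p = 0.00502) while the interval of MRPL36 was -0.17 to 0.17. MRPL52 lies 59 bases from the amino acid transporter SLC7A7, which fell (-0.55 ± 0.11, SE; limma adjusted p = 0.00423), while MRPL52 was at 0.12 ± 0.09. MRPS34 lies 52 bases from EME2, which rose (0.63 ± 0.15, SE; limma adjusted p = 0.0142), while MRPS34 was at 0.36 ± 0.18. MRPL30, which fell, lies 21 bases from MITD1, which was not called (-0.08 ± 0.06, SE). Differences between the members of a pair were not tested.

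Other genes of mitochondrial gene expression were read beside the ribosomal proteins. Of all genes, 15.2% rose and 16.8% fell in the same fit. Of 25 assembly and ribosomal RNA factors 4 rose and 2 fell, with a median log2 fold change of 0.01. NSUN4, a methyltransferase of the small subunit RNA, had 892, 860, 890 and 802 normalised counts in EXT1-/- libraries, against 1060, 1009, 1092 and 1004 in WT libraries. The groups lay apart (log2 fold change -0.27 ± 0.06, SE; limma adjusted p = 0.00803). MRM2, a methyltransferase of the large subunit RNA, had 1893, 1781, 1808 and 1903 in EXT1-/- libraries, against 1458, 1586, 1551 and 1647 in WT libraries. Its EXT1-/- libraries were all above its WT libraries (0.24 ± 0.06, SE; limma adjusted p = 0.0108). This list's count of 6 was 3 without EXT1-/- replicate 1 or WT replicate 3 and 2 without WT replicate 2. Of 18 translation factors 1 rose and 0 fell. The release factor C12orf65 had 1075, 903, 904 and 1027 normalised counts in EXT1-/- libraries, against 849, 750, 714 and 793 in WT libraries. No values overlapped (0.33 ± 0.08, SE; limma adjusted p = 0.016; not called without WT replicate 2). RMND1, next in that list, had 1011, 1065, 987 and 937 in EXT1-/- libraries, against 1029, 1054, 1151 and 1171 in WT libraries, and was not called (adjusted p = 0.152).

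Of 20 mitochondrial aminoacyl-tRNA synthetases and related enzymes 0 rose and 4 fell (2 without WT replicate 2), where 15.2% of all genes rose and 16.8% fell. MARS2, which charges the mitochondrial methionine tRNA, had 655, 783, 753 and 716 normalised counts in EXT1-/- libraries, against 953, 1123, 1040 and 1106 in WT libraries. The groups lay apart (log2 fold change -0.54 ± 0.08, SE; limma adjusted p = 0.001). GATB, a subunit of the enzyme that makes glutamine-charged tRNA, had 1004, 861, 989 and 1038 in EXT1-/- libraries, against 1205, 1217, 1134 and 1238 in WT libraries. These groups did not overlap either (-0.30 ± 0.07, SE; limma adjusted p = 0.011), and EARS2 and VARS2 fell by less. Of 12 genes for transcription and replication of mtDNA 2 rose (1 without WT replicate 2 or WT replicate 4), where 15.2% of all genes rose. MTERF1, which binds mtDNA and ends transcription, had 1035, 1050, 1045 and 975 normalised counts in EXT1-/- libraries, against 732, 821, 775 and 844 in WT libraries. All EXT1-/- values were higher (log2 fold change 0.37 ± 0.06, SE; limma adjusted p = 0.00219). POLRMT, the mitochondrial RNA polymerase, had 1988, 1976, 1822 and 2936 in EXT1-/- libraries, against 1491, 1518, 1636 and 1231 in WT libraries. Its groups did not overlap (0.55 ± 0.15, SE; limma adjusted p = 0.0238), but its log2 fold change was 0.17 and not called with length and GC trends removed, and the call was lost without WT replicate 2 or WT replicate 4.

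The 13 mtDNA-encoded protein genes, the templates of this ribosome, were not called in all 8 libraries. Their median log2 fold change was 0.229 in all 8, 0.03 in the low and -0.11 in the high set, and 2 were called without WT replicate 1. MT-CYB and MT-ND1, those with the smallest adjusted p, had 142839, 76878, 80396 and 156805 normalised counts in EXT1-/- libraries, against 131066, 62795, 56828 and 63480 in WT libraries (MT-CYB), and 106510, 52205, 54975 and 119760 in EXT1-/- libraries, against 101012, 42892, 39403 and 42492 in WT libraries (MT-ND1). Both overlapped, the high values being those of the high set, as they must since the sets were read from the share of these transcripts. With the set term both were called higher, MT-CYB at 0.30 and MT-ND1 at 0.29 (limma adjusted p = 0.00129 and 0.00202). Of the 13, 3 rose and 1 fell with that term, where 26.2% of all genes rose and 25.6% fell. Of 7 regulators of mitochondrial biogenesis 4 rose and 0 fell, where 15.2% of all genes rose and 16.8% fell. PPARGC1A, a coactivator that raises expression of nuclear genes for mitochondria, had 110, 117, 120 and 115 normalised counts in EXT1-/- libraries, against 27, 31, 29 and 32 in WT libraries. The groups lay far apart at a low level (log2 fold change 1.92 ± 0.12, SE; limma adjusted p = 7.71e-06). PPARGC1B (0.36), GABPA (0.25) and YY1 (0.19) were the other 3. YY1 had 6101, 6310, 6179 and 6918 in EXT1-/- libraries, against 5354, 5638, 5620 and 5679 in WT libraries, without overlap. For this list the count of 4 was 1 or 2 without any single library other than WT replicate 1. Of 77 cytosolic ribosomal proteins 0 rose and 1 fell, beside the same shares of all genes. RPL30 had 35157, 33892, 36401 and 33269 normalised counts in EXT1-/- libraries, against 36131, 40141, 40049 and 44611 in WT libraries, with WT replicate 1 under an EXT1-/- library (-0.21 ± 0.07, SE; limma adjusted p = 0.0467). RPL7A, next in that list, was not called (-0.13, adjusted p = 0.0551). With the set term 1 of the 77 rose and 13 fell, where 26.2% of all genes rose and 25.6% fell. In the low set alone 0 of the 77 rose and 36 fell, where 21.1% of all genes rose and 24.3% fell. The list median was -0.104, and 15 were called without WT replicate 1 and 0 without any other single library.

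**Figure D5:**
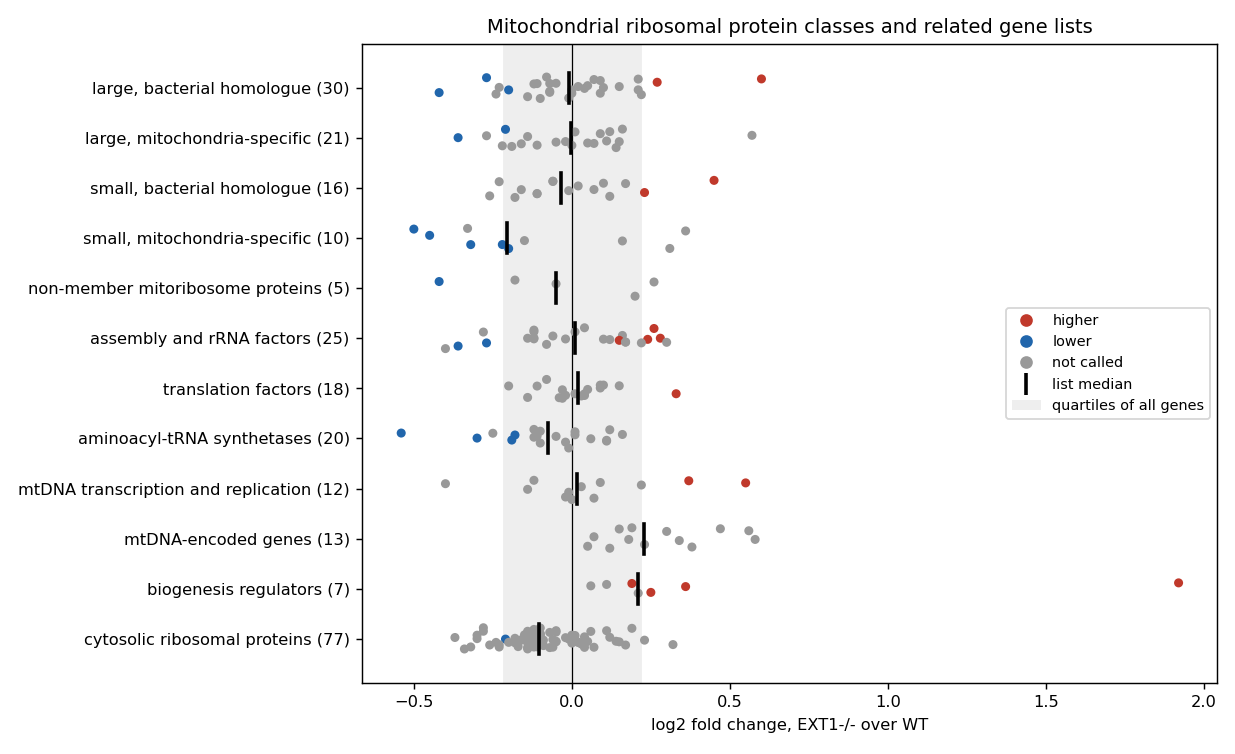
Log2 fold change, EXT1-/- over WT, of each gene in the 4 classes of mitochondrial ribosomal proteins and in 8 related lists (number of genes in brackets), with black bars for list medians and grey shading between the quartiles of all genes (-0.214 to 0.218). The small subunit proteins specific to mitochondria have their median at -0.206, and PPARGC1A stands alone at 1.92.

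The authors' deposited table marks 10 of the 78 genes at a false discovery rate of 0.05 (12.8%, beside 26.2% of all genes), 4 higher and 6 lower (5.13% and 7.69%, beside 12.6% and 13.6%). The 14 calls made here include 8 of them. The other 2 in the authors' deposited table were MRPL41 (log2 fold change 0.56, false discovery rate 0.0178) and MRPS34 (0.40, 0.0493), both higher and neither called here. MRPS18B, for which the authors' deposited table gives -0.32 and a false discovery rate of 0.00574, and MRPS35, for which it gives -0.45 and 0.000925, were lower by both.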

How the data were processed

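Total RNA of 8 H9 libraries (4 EXT1-/-, 4 WT) was prepared with a stranded kit, per the labels' protocols; STAR, RSEM, edgeR and the build GRCh38.p10 are named in the submitters' processing notes, with no tool versions. The authors deposited 1 table with a normalised read count per gene and library (whole numbers scaled between libraries, a signal and not raw counts) and 0 columns of other samples. Per the file headers, the authors also deposited a log2 fold change and log2 CPM, a likelihood ratio score and a p-value with its false discovery rate for each gene. No count model was fitted, since these are not counts. Depth in reads is not given in the sources used here, so precision rests on the spread of 4 libraries per group.

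From these values log2(value + 1) was tested with limma 3.58.1 in R 4.3.3, with an intensity trend and genotype as the only term, over all 15811 genes (each with a mean of 1 or more in a group), with Benjamini-Hochberg adjustment and 0.05 as the threshold; fold changes are on that scale. The fit was also run on values simulated from the means, library set effects and spread of these data, and the outcome is not reported here. Library sets were read from the share of mtDNA-encoded transcripts. Lengths and GC content (15768 genes, 99.7%) and coordinates came from GENCODE 29, promoters from RefSeq. Tables were made with pandas 2.3.3, numpy 2.4.6 and scipy 1.17.1 under Python 3.11.15, figures with matplotlib 3.10.9. Named genes are every called member, by library the 8 with the largest rise and fall, a set of always-named members, those with the highest and lowest mean, EXT1, and up to 2 genes of each list with the smallest adjusted p; MRPL22, the only called gene beyond these, is also given by library. Members, classes and lists were chosen with earlier results of these data known. Alternatives were other pseudocounts, filters and scalings, no trend, a replicate block, library sets and each library left out.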

Additional observations from a re-analysis of the deposited data

Results flagged for a closer look

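Among 25 named members, 50 groups of 4 libraries were examined for a library far from the other 3 of its group, and 6 held one; chance alone gives about 1 in 20 groups. EXT1-/- replicate 3 had 499 normalised counts of MRPL53, against 560 to 571 in the other EXT1-/- libraries. The other 5 were all WT replicate 1, the 1 WT library of the high set. It had 2621 normalised counts of MRPS35 (3234 to 3304 in the other WT libraries), 1311 of MRPS31 (1407 to 1425), 4772 of MRPS16 (5885 to 5980) and 515 of MRPS36 (981 to 1064), all low, and 3850 of MRPL45 (3496 to 3547), which was high. MRPS35 and MRPS31 remained lower in EXT1-/- cells without WT replicate 1, as did MRPL45.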

How the results depend on the processing

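Of the 14 calls, MRPS12, MRPS6, MRPS35 and MRPS18B held their direction and call under all 21 alternatives, and no called gene turned its direction under any. The number of called members was 30 with the set term and 31 in the low set; higher members numbered 9 with the set term and 7 after removal of length trends or of length and GC trends, and lower members 21 and 26. Leaving out 1 library gave 6 to 19 called members (2 to 4 higher, 4 to 16 lower), 3721 to 6041 genes in all, 1 to 1 mitochondrial ribosomal proteins of other symbols, 2 to 9 assembly factors, 0 to 1 translation factors, 2 to 5 synthetases, 1 to 2 mtDNA transcription genes, 0 to 2 mtDNA-encoded genes, 1 to 4 regulators, 0 to 15 cytosolic ribosomal proteins, and -0.79 to -0.70 for EXT1. With the set term and in the low set, counts were 8195 (all genes, set term), 14 and 11 (assembly), 4 and 3 (translation factors), 5 and 4 (mtDNA transcription), 4 and 5 (mtDNA-encoded) and 14 and 36 (cytosolic, 13 and 36 of them lower). Of all genes, 51.8% were called with the set term and 45.4% in the low set. With length and GC trends removed they were 2 (translation factors) and 1 (mtDNA transcription). Cytosolic calls were 0 with a filter of 5 CPM in 4 libraries, 3 with upper quartile factors and 0 without the trend. The cause was not tested.

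Deviations of same-numbered libraries correlated at 0.674, 0.163, 0.244 and -0.516. EXT1-/- replicate 4 and WT replicate 1, both of the high set, correlated at 0.599. The library sets enter these deviations, so the correlations cannot show whether replicate numbers pair the libraries. With the replicate block 12 members passed, 2 higher and 10 lower, with 1 mtDNA transcription gene and 0 cytosolic ribosomal proteins.

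The genes that changed sign were not called, and leaving out 1 library gave log2 fold changes of -0.01 to 0.15 for MRPL12, -0.27 to 0.0027 for MRPL13, -0.09 to 0.02 for MRPS16 and -0.04 to 0.06 for MRPL36. MRPL12 was -0.11 in the low set, -0.17 with length and GC trends removed and -0.01 without EXT1-/- replicate 4; MRPL13 was 0.03 with the set term and 0.0027 without EXT1-/- replicate 4; MRPL3 was -0.01 in the low set and -0.0011 without EXT1-/- replicate 4. MRPS16 was 0.004 with equal totals without mtDNA-encoded genes, 0.05 with the set term, 0.00074 and 0.02 with length and with length and GC trends removed, and 0.01 to 0.02 without single libraries. MRPS30 was -0.01 with upper quartile factors, -0.01 with the set term, -0.03 in the low set and -0.01 without single libraries. MRPL36 was 0.001 with median-of-ratios factors, 0.01 with equal totals, 0.04 and 0.05 with length and with length and GC trends removed, and 0.0018, 0.0039, 0.01 or 0.06 without single libraries. MRPS36 was 0.07 with the set term, MRPL53 -0.02 in the low set, and MRPL41 -0.07 and AURKAIP1 -0.10 with length and GC trends removed.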
